A study of Homo sapiens with 2 samples.

Results

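The 43 genes described here encode the constitutive proteasome, its assembly factors and its activators in C4-2B cells. They are the protein-coding genes of the deposited count table whose symbols join PSM to a letter from A to G and a number, with the interferon-inducible PSMB8, PSMB9, PSMB10, PSME1 and PSME2 set aside, and they were taken from 60671 genes. C4-2B is a human castration-resistant prostate cancer (CRPC) line, and the cells were given vehicle or 1 µM (R)-9b, a small-molecule inhibitor of the tyrosine kinase ACK1, overnight. Poly-A RNA was sequenced from 1 library per condition, so no difference below has a replicate check, no p-value is given and every interval covers counting error only. The labels call the cells a breast cancer line, whereas the methods of the study call them CRPC cells, and nothing in the sources used here says that the cultures were repeated.

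The proteasome degrades proteins that carry ubiquitin chains. Its core particle is a barrel of stacked rings, in which alpha subunits form the outer rings and the gate, and beta subunits form the inner rings with the proteolytic sites. The regulatory particle caps the barrel, and its base of ATPases unfolds the substrate while its lid removes the ubiquitin chain. Dedicated chaperones build each particle, and the transcription factor NFE2L1, which acts with small MAF proteins, is known to raise proteasome genes together when proteolysis is impaired.

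The promoters of the genes were examined for the site of this factor, a known element of proteasome genes. RefSeq promoters (GRCh38.p14), which run from 250 bases before to 50 bases after each start, matched 37 of the 43 genes, and PSMA7, PSMB1, PSMB6, PSMB7, PSMD4 and PSMG3 were not matched. The site was searched on both strands as TGACNNNGC, and 12 of the 37 genes (32.4%) held it in at least 1 promoter, against 16.1% of 27305 genes with a promoter of the same length. The following windows, each 10 bases either side of the match, lie upstream of the RefSeq start, are written 5′ to 3′ on the strand of the gene, and show the match in capitals, so that a match on the other strand reads as GCNNNGTCA. They were chosen to show 1 gene that was higher with (R)-9b (PSMA4), a pair that were lower (PSME4 and PSMG2) and 3 that moved by less than the call threshold defined with the values (PSMB3, PSMC5 and PSMD12).
PSMA4 (chr15:78540650-78540678, plus strand): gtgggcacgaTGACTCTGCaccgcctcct
PSMB3 (chr17:38752627-38752655, plus strand): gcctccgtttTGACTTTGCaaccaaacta
PSMC5 (chr17:63827654-63827682, plus strand): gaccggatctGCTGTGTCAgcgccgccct
PSMD12 (chr17:67366724-67366752, minus strand): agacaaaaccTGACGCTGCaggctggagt
PSME4 (chr2:53971009-53971037, minus strand): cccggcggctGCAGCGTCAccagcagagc
PSMG2 (chr18:12658689-12658717, plus strand): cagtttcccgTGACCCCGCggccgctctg
In GENCODE 29 the PSMB3 and PSMD12 windows hold no exon, the PSMA4 and PSMG2 windows lie in an exon of another transcript of the same gene, the PSMC5 window also in one of FTSJ3, and the PSME4 window in an exon of ACYP2. Genes with and without the site had nearly the same median ratio of (R)-9b to vehicle, as given after the values of the members. The ETS-type string CCGGAA was held by 22 of the 37 genes (59.5%) against 20.1% of all genes, the SP-type string GGGCGG by 25 (67.6%) against 48.3%, and the NF-Y-type string CCAAT by 19 (51.4%) against 39.7%. The cyclic AMP response string TGACGTCA was in none of these windows and in 2.25% of all genes. None of the 5 strings contains another, and a match is a description of letters. The 27305 genes were not limited to protein-coding or expressed genes. Whether other abundant protein-coding genes hold these strings as often was not tested.

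The vehicle library held 65207444 counts, and the library from (R)-9b cells held 57653965. Counts from mitochondrially encoded genes made up 1.49% of the vehicle library and 9.54% of the (R)-9b library, and TMM scaling computed without those genes kept all 12 calls described below. TMM sets the scale after trimming genes with extreme ratios, and scaling by total counts in its place lowers every log2 ratio by 0.060. Each of 8 prostate markers was expressed, with KLK3 at 146597 counts in vehicle and 297728 in (R)-9b and a summed level of 4833 and 9804 CPM, the count scaled for library size. The breast markers SCGB2A2, ANKRD30A and LALBA had 0 counts in both libraries, ESR1 had 2 in each, and the other pair of that list had at most 34. Of 4 immune markers, PTPRC was at 0 and the other 3 had at most 7 counts. Of 5 stromal and endothelial markers, COL1A1 had 1114 and 2004 gene counts, VWF had 769 and 411, and the other 3 had at most 14. The estimated transcript counts that the authors also deposited were low beside these gene counts. COL1A1 had 28.959 estimated counts in vehicle and 29.782 in (R)-9b, and VWF had 1.043 and 0. The source of this difference was not tested.

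Proteasome genes as a whole took a similar share of the counts in the libraries, with individual genes on either side of no change. The 41 genes tested, those with 10 or more counts in the libraries combined, summed to 337792 counts (vehicle) and 276016 counts (treated). These sums are 0.518% and 0.479% of the libraries, and the summed level differed by a log2 ratio of −0.05 after scaling. Across the 41 genes the median log2 ratio of (R)-9b over vehicle was −0.04, the range was −0.53 to 0.68 and the SD was 0.276. Over all 23446 genes tested the median was −0.0049, and over the 9590 protein-coding genes with at least 1000 counts it was −0.03, with quartiles of −0.29 and 0.25.

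A gene was called higher when its level with (R)-9b was at least 25% above vehicle and lower when it was at least 20% below, the same step of 0.32 on the log2 scale in either direction. By this rule 6 proteasome genes were lower and 6 were higher with (R)-9b, and 29 lay between. Among all genes tested 28.9% were lower and 29.8% higher by that much. Against the abundant protein-coding genes, of which 22.7% were lower and 19.7% higher, the 40 proteasome genes with at least 1000 counts gave 15% in each direction. At 1.5-fold no proteasome gene was lower and only PSMA6 was higher, beside 18% lower and 20.2% higher among all genes tested and 9.95% lower and 8.65% higher among abundant protein-coding genes. The 95% interval lay wholly below 0 for 20 genes and wholly above 0 for 14, beside 44.3% and 38.4% of abundant genes, and it included 0 for 7. Scaling by total counts changed the split of calls from 6 lower and 6 higher to 10 lower and 4 higher.

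**Figure D1:**
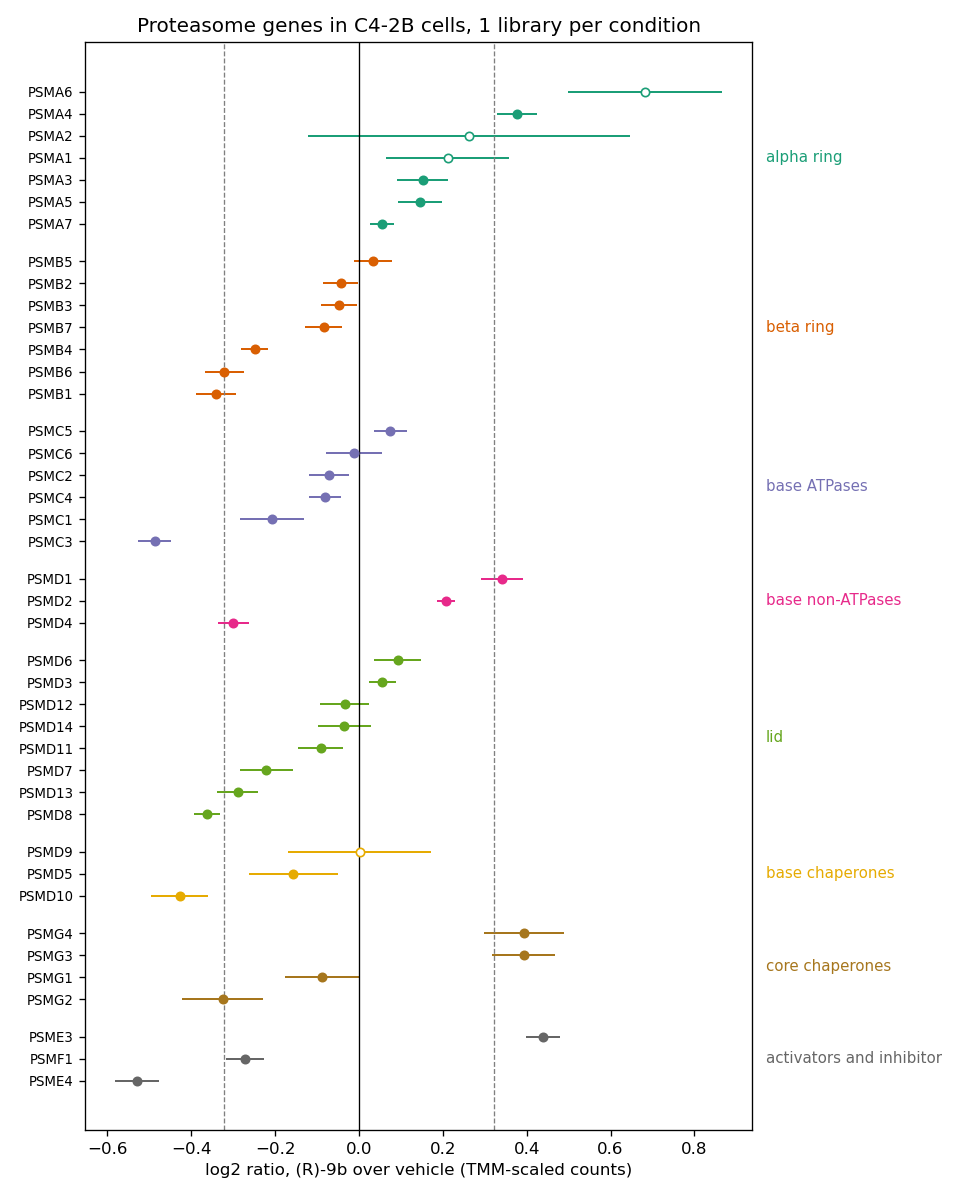
Each point is the log2 ratio of (R)-9b over vehicle for 1 of 41 proteasome genes, from 1 library per condition, the horizontal axis is on the log2 scale, bars are exact 95% counting intervals and dashed lines mark the call threshold. Open points share over 10% of their exon bases with a gene on the same strand, and all 7 alpha ring genes lie above 0 while 6 of 7 beta ring genes lie below it, with PSMA7 and PSMB5 below 0 under scaling by total counts.

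All 7 alpha ring genes had higher values with (R)-9b, with a median log2 ratio of 0.21, although PSMA7 lay below 0 when scaled by total counts and PSMA1 and PSMA2 lay below 0 from estimated counts. PSMA4, whose product contributes to the gate of the core particle, had 6798 counts in vehicle and 7491 in (R)-9b, a log2 ratio of 0.38 (95% interval 0.33 to 0.42). With total counts, deposited CPM and moderated log2 CPM the value of PSMA4 was 0.318, 0.315 and 0.318, just short of the threshold. PSMA6 had 425 and 578 counts, a log2 ratio of 0.68 (0.50 to 0.86), which was the highest of the 41 genes and rests on the second lowest count in the vehicle library. PSMA6, PSMA1 and PSMA2 share exon bases with a gene on the same strand, a point taken up with the estimated counts. PSMA2 had 115 and 117 counts and the widest interval, −0.12 to 0.65 around 0.26. PSMA1 had 764 and 750 counts with a ratio of 0.21. The remaining alpha genes were well counted and lay nearer to 0. PSMA3 went from 4615 to 4348 counts (log2 ratio 0.15), PSMA5 from 6018 to 5649 (0.15) and PSMA7 from 20317 to 17894 (0.05). Without the 3 genes that share exons, the median of the 4 remaining alpha genes was 0.15.

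The beta ring lay on the other side of 0, with a median of −0.08 and 6 of 7 genes below 0 (all 7 when scaled by total counts, and all but PSMB3 from estimated counts). None of its 3 proteolytic subunits passed the call rule with TMM scaling of the gene counts. Under alternatives, PSMB6 passed it as lower with total counts (−0.38), DESeq2 size factors (−0.34), deposited CPM (−0.38) and moderated log2 CPM (−0.38). PSMB5 passed it as lower from estimated counts (−0.37). PSMB5 carries the chymotrypsin-like activity, which is the site that the drug bortezomib blocks, and had 8626 and 7487 counts, a log2 ratio of 0.03 (−0.01 to 0.08). PSMB7, the trypsin-like subunit, had 9119 and 7295 counts and a ratio of −0.08 (−0.13 to −0.04). PSMB6, the caspase-like subunit, had 9169 and 6223 counts and a ratio of −0.321 (−0.37 to −0.27), and fell just short of the call threshold of 0.322. Among the subunits without a proteolytic site, PSMB1 was lower, from 9148 to 6126 counts, a log2 ratio of −0.34 (−0.39 to −0.29), which was −0.30 and no longer called under upper-quartile scaling. PSMB4 went from 19395 to 13843 counts (−0.25), PSMB3 from 9765 to 8011 (−0.05) and PSMB2 from 10308 to 8479 (−0.04).

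The difference between the alpha and the beta medians was 0.295 on the log2 scale. It was 0.233 without the genes that share exons, and 0.382 from the estimated transcript counts that the authors also deposited. The ranges of the rings did not overlap, since the lowest alpha gene (PSMA7, 0.05) lay above the highest beta gene (PSMB5, 0.03). Their counting intervals overlapped, and each of them changed sign when the libraries were scaled by total counts. From estimated counts the ranges overlapped, since PSMA1 stood at −0.06 and PSMB3 at 0.47.

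The core proteins with restricted tissues had at most 4 counts. PSMA8, which replaces an alpha subunit in testis, had 0 counts in both libraries and was not detectable at this depth, which allows up to 0.0451 CPM (vehicle) and 0.0531 CPM (treated). PSMB11, the beta subunit of the thymus, had 4 counts in vehicle and 1 in (R)-9b. Their log2 ratio is not used, as neither gene reached 10 counts.

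The regulatory particle had a median log2 ratio of −0.07 over 17 genes, against 0.04 over the 14 core genes. The core median turned to −0.04 without the genes that share exons, −0.05 from estimated counts and −0.02 with total counts. Of the core genes 1 was called lower and 2 were called higher, and of the regulatory genes 2 were lower and 1 was higher. Among all genes tested 28.9% were lower and 29.8% higher. The difference of the medians, core minus regulatory, was 0.115, but it was 0.027 without the genes that share exons, 0.017 between the summed levels and −0.0018 from estimated transcript counts. Summed over genes, the core particle held 0.633 times the CPM of the regulatory particle in vehicle and 0.641 times in (R)-9b. The summed mRNA counts of the particles thus stood in nearly the same proportion in the libraries, and the proteins were not measured. These sums are not corrected for mRNA length. Per kilobase of mRNA, the median core gene stood at 85.8 CPM in vehicle and 90.9 in (R)-9b. The median regulatory gene stood at 57.9 and 51.3.

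Within the base of the regulatory particle, 5 of the 6 ATPase genes had values below 0 (4 under upper-quartile scaling and from estimated counts, where PSMC6 lay above it) and a median of −0.08. PSMC3 encodes RPT5, an ATPase whose tail docks into the alpha ring. It was lower with (R)-9b, from 13589 to 8220 counts, a log2 ratio of −0.49 (−0.53 to −0.45). The other ATPases lay within the threshold. PSMC1 went from 3289 to 2416 counts (−0.21), PSMC4 from 12468 to 10001 (−0.08) and PSMC2 from 7759 to 6264 (−0.07). PSMC6 had 3975 and 3342 counts (−0.01), and PSMC5 had 10507 and 9386 (0.08), the only ATPase gene above 0.

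The 3 other base genes diverged. PSMD1 encodes RPN2, a large scaffold of the base, and was higher with 6280 counts in vehicle and 6748 in (R)-9b, a log2 ratio of 0.34 (0.29 to 0.39). The call of PSMD1 was lost with total counts (0.28), deposited CPM (0.28), moderated log2 CPM (0.28) and DESeq2 size factors (0.320). PSMD2 encodes RPN1, a scaffold that receives ubiquitin-binding shuttles. It had the largest count of all members, 34907 and 34168, with a ratio of 0.21. PSMD4 encodes the ubiquitin receptor RPN10 and had a ratio of −0.30, from 15062 to 10378 counts.

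In the lid, whose median was −0.06, only PSMD8 passed the threshold. PSMD8 encodes RPN12, and its counts were 22423 and 14792, a log2 ratio of −0.36 (−0.39 to −0.33). PSMD14, which encodes RPN11, the protease that cuts the ubiquitin chain from the substrate, had 4345 and 3597 counts and a ratio of −0.03 with an interval that included 0 (−0.10 to 0.03). Its partner PSMD7 had 4779 and 3476 counts (−0.22). PSMD13 went from 8307 to 5765 counts (−0.29) and PSMD11, which clamps the lid to the core particle, from 6200 to 4935 (−0.09). PSMD12 had 5098 and 4221 counts (−0.03). PSMD3, with 16401 and 14457 counts (0.06), and PSMD6, with 5511 and 4981 (0.09), were the lid genes above 0. PSMD3 lay at −0.0044 with total counts, deposited CPM and moderated log2 CPM, and PSMD12 and PSMD14 lay above 0 with the upper quartile.

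Of the 4 core chaperones, 2 were called higher and 1 lower, beside 29.8% higher and 28.9% lower among all genes tested. PSMG3 and PSMG4, which work as a pair on the alpha ring, both had a log2 ratio of 0.39. PSMG3 had 2675 and 2978 counts (0.32 to 0.47), and PSMG4 had 1686 and 1878 counts (0.30 to 0.49). PSMG1 and PSMG2 form the other pair. PSMG2 was lower with 2179 and 1475 counts, a ratio of −0.33 (−0.42 to −0.23), or −0.29 and not called under upper-quartile scaling, while PSMG1 had 2341 and 1869 counts (−0.09) and an interval that included 0.

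Of the base chaperones, PSMD10, also called gankyrin, was lower. It had 4411 and 2781 counts, a log2 ratio of −0.43 (−0.50 to −0.36). PSMD5 had 1693 and 1288 counts (−0.16), and PSMD9 had 615 and 522 counts with a ratio of 0.0013.

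The alternative caps of the core particle gave the lowest value of the 41 genes and the second highest. PSME4 encodes the activator PA200 and was lower, from 7987 to 4696 counts, a log2 ratio of −0.53 (−0.58 to −0.48). PSME3 encodes the nuclear activator PA28γ and was higher, from 8817 to 10134 counts, a ratio of 0.44 (0.40 to 0.48). PSMF1, which encodes the inhibitor and adaptor PI31, had 9906 and 6957 counts (−0.27).

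By position, the 43 genes lie on 17 chromosomes, with 7 on chromosome 17 and 6 on chromosome 14. In GENCODE 29 (GRCh38), PSME4 (ENSG00000068878) spans chr2:53864067-53970840 on the minus strand, PSMC3 (ENSG00000165916) spans chr11:47418769-47426473 on the minus strand, and PSMD10 (ENSG00000101843) spans chrX:108084207-108091618 on the minus strand. Among the genes that were higher, PSMA6 (ENSG00000100902) spans chr14:35278633-35317493, PSME3 (ENSG00000131467) spans chr17:42824385-42843758 and PSMA4 (ENSG00000041357) spans chr15:78540405-78552419, all on the plus strand.

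Genes with a match to the NFE2L1-type site in a promoter lay on either side of no change. The 12 genes that held it had a median log2 ratio of −0.04 and ranged from −0.53 (PSME4) to 0.38 (PSMA4), and the 23 tested genes without it had a median of −0.03. Of the 12, PSME4 and PSMG2 were lower, PSMA4 and PSMD1 were higher and 8 lay within the threshold. In PSMC4 and PSMD1 the only match lay after the start. Whether the factor binds any of these matches was not tested.

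Levels between genes were compared as scaled CPM per kilobase of the principal mRNA in GENCODE 29. For some genes the principal mRNA was not the transcript with the largest share of the estimated counts, which limits these levels and their ranks. The length for PSMC2 was that of PSMC2-203, whereas PSMC2-201 held 96.9% and 97.7% of the estimates. For PSMA4 it was that of PSMA4-201, whereas PSMA4-209 held 49.7% and 51.7%. In vehicle the highest were PSMA7 (306.4 CPM per kb), PSMB4 (302.2), PSMD8 (216.9) and PSMB3 (189.7), and in (R)-9b they were PSMA7 (318.2), PSMB4 (254.3), PSMB3 (183.5) and PSME3 (179.8). The lowest of the 41 genes was PSMA2, at 1.16 and 1.39 CPM per kb, followed in vehicle by PSMD9, PSMA6, PSMD5 and PSMA1. The subunits of a ring stand in equal numbers in the particle, yet the alpha ring ran from 1.16 to 306.4 CPM per kb in vehicle and the beta ring only from 57.3 to 302.2. Of these 5 lowest genes, all but PSMD5 share exons with another gene. The median beta ring gene stood at 148.1 CPM per kb in vehicle and 129.4 in (R)-9b, and the median lid gene at 50.4 and 44.1. The medians were 24.1 and 26.7 for the core chaperones, 23.1 and 26.8 for the alpha ring, and 7.39 and 6.63 for the base chaperones.

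**Figure D2:**
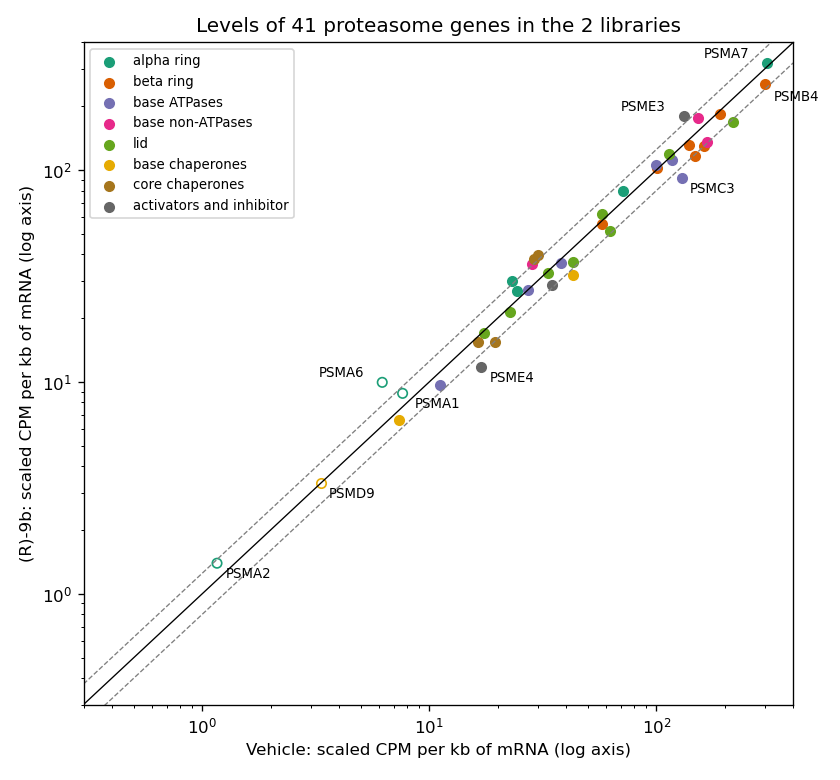
Scaled CPM per kb of mRNA of 41 proteasome genes in the vehicle library (horizontal, log axis) and the (R)-9b library (vertical, log axis), 1 library each, coloured by group, with the line of equal levels and dashed lines at the call threshold. The genes spread from 1.16 to 306.4 in vehicle, far more than they move off the diagonal, and the 4 open points, which share exons with another gene on the same strand, lie among the lowest.

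The deposited gene counts hold only reads that could be assigned to 1 gene, and 4 members share exons with another. PSMA1, PSMA2, PSMA6 and PSMD9 share 24.7%, 14.6%, 14.1% and 19.9% of their exon bases with a gene annotated on the same strand, and no other member shares over 10%. The transcript table, which holds estimated counts that can divide reads among genes, gave a median of 0.356 estimated counts per gene count over the members. For these 4 genes it gave far more, at 3.38 for PSMA1, 14.6 for PSMA2, 5.82 for PSMA6 and 2.96 for PSMD9. PSMA6 had 2856 estimated counts in vehicle and 2981 in (R)-9b, and its log2 ratio was then 0.31 in place of 0.68, which no longer reached the threshold. PSMA1 (2831 and 2293 estimated counts) and PSMA2 (1868 and 1523) went to −0.06 and −0.05, so their direction depended on the quantification. PSMD9 went from 0.0013 to −0.10.

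For the other members the 2 quantifications mostly gave the same value. In 30 of 41 genes the estimate was 0.3 to 0.4 of the gene count, and in these the log2 ratios differed by at most 0.075 and had the same sign in 29. PSMC1 and PSMD7, with estimates of 0.757 and 0.753 of the gene count, share 75.8% and 30.7% of their exon bases with a gene on the opposite strand, and the strand setting of the counting is not given in the sources used here. Their ratios were −0.01 and −0.19 from estimates.

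For PSMB3, PSMB5, PSMC5, PSMD1 and PSMG2 the estimate was below 0.2 of the gene count. The transcript table lists fewer transcripts than the gene table counts for 8 members, which include 4 of these 5, all but PSMB3, but also PSMA4, PSMC1 and PSMF1, whose estimates are not low, and PSMA8. PSMD1 had only 154 estimated counts in vehicle and 563 in (R)-9b, a log2 ratio of 2.12 beside 0.34 from gene counts. PSMB3 went to 0.47, PSMC5 to 0.35 and PSMB5 to −0.37, while PSMG2 stayed lower at −0.57. The part of the unlisted transcripts in these differences was not tested.

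**Figure D3:**
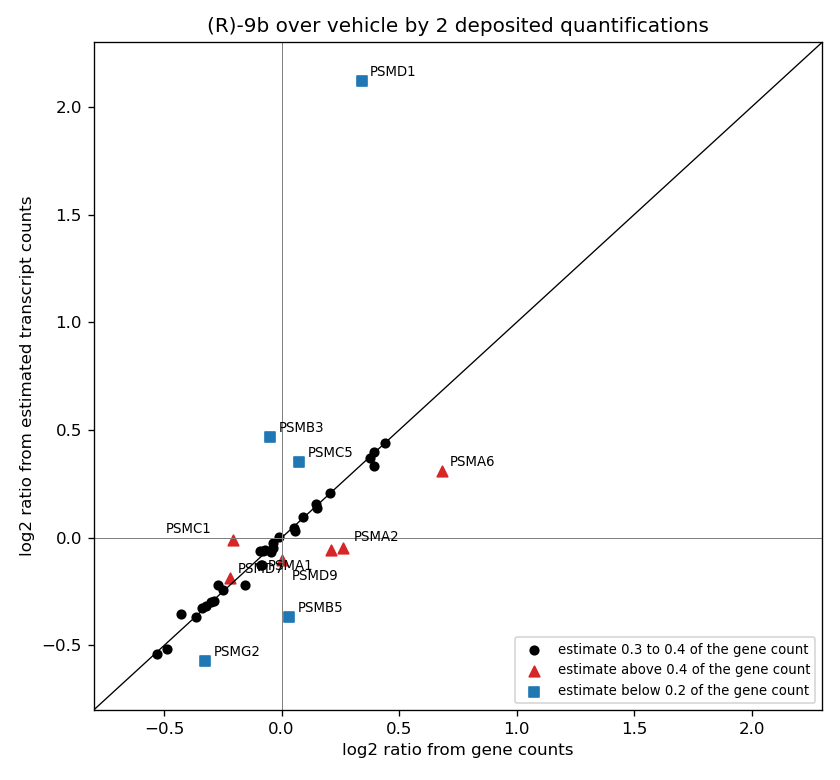
Log2 ratio of (R)-9b over vehicle from gene counts (horizontal) and from estimated transcript counts (vertical) for 41 proteasome genes, with the line of equal values, 1 library per condition. The 30 black points lie within 0.075 of the line, and of the labelled genes, whose estimates are high (triangles) or low (squares) beside the gene count, all but PSMD7 lie farther off it.

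In 31 of 41 genes the share of the main transcript among the gene's estimated counts moved by less than 5 percentage points. PSME4-202, the protein-coding transcript of PSME4, went from 59.3% to 72.4% of its estimated counts, and PSME4-201, annotated as a target of nonsense-mediated decay, from 37.5% to 26.9%. In PSMC3 the protein-coding PSMC3-212 went from 77.1% to 68.9% and PSMC3-201 from 9.56% to 20.9%. In PSMG3, PSMG3-203 went from 64.7% to 54.6% and PSMG3-202 from 34.9% to 44.8%, both protein-coding. PSMB1-201 held 99.9% and 98.5% of PSMB1. These shares are estimates from 1 library each, and their error was not computed.

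The genes set aside by the definition, which encode the immunoproteasome, all had higher values with (R)-9b. Their median log2 ratio was 0.68 over 5 genes, and 4 were called higher, beside 29.8% higher among all genes tested. PSMB9 went from 36 to 115 counts (log2 ratio 1.91, 1.36 to 2.50), PSMB8 from 204 to 278 (0.68) and PSMB10 from 177 to 214 (0.51). These are the inducible catalytic subunits that replace PSMB6, PSMB5 and PSMB7. Per length in vehicle PSMB8 stood at 2.73 CPM per kb and PSMB5 at 100.1. PSMB10 shares 34.8% of its exon bases with a gene on the same strand, and had 592 and 700 estimated counts, more than its gene counts. PSMB8 had 0 estimated counts in vehicle and 104 in (R)-9b, and PSMB9 had 0 and 3.7, fewer than their gene counts. Of the interferon-inducible activator, PSME2 went from 2173 to 3108 counts (0.75), and PSME1 from 4072 to 3998 (0.21). Their estimated counts were low beside these, at 168 and 351 for PSME2 and 206 and 232 for PSME1.

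Other proteins of the proteasome that carry different names lay close to 0, with a median of −0.04 over 11 genes. Of these 1 was lower and 1 higher, beside 28.9% lower and 29.8% higher among all genes tested. ZFAND5, which stimulates proteasome activity, was lower from 8656 to 4942 counts (−0.57). PAAF1, which binds the ATPases, was higher from 2045 to 2173 counts (0.33). POMP, which guides assembly of the core particle, had 9666 and 7952 counts (−0.04), and ADRM1, a ubiquitin receptor, had 7580 and 5886 (−0.13).

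Of the ubiquitin genes and activating enzymes, 4 are reported here, and none of these 4 passed the call threshold. UBA1, the main activating enzyme, had 34468 and 34967 counts and a log2 ratio of 0.26. UBA6, the other activating enzyme, had 2871 and 2343 counts (−0.06). Of the genes that encode ubiquitin, RPS27A, a fusion with a ribosomal protein, had 24329 and 22119 counts (0.10), and UBB had 16251 and 13867 (0.0089).

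Of the NFE2L1 pathway, 7 of 12 tested genes were lower and 1 was higher, with a median of −0.36, beside 28.9% lower and 29.8% higher among all genes tested. The list joins NFE2L1, its partners, the protease that activates it and ligase subunits, so the median is no measure of NFE2L1 activity. NFE2L1 itself went from 36358 to 21424 counts (−0.53, −0.55 to −0.50) and the related NFE2L2 from 5009 to 3360 (−0.34). Its small MAF partners diverged, as MAFF went from 619 to 119 counts (−2.14), MAFG from 3837 to 2050 (−0.67) and MAFK from 3521 to 3375 (0.18). The ligase subunits SEL1L and SYVN1, which act in degradation at the endoplasmic reticulum, went from 21612 to 5049 counts (−1.86) and from 14945 to 7037 (−0.85). FBXW7, a ligase receptor for NFE2L1, went from 853 to 557 counts (−0.38). DDI2, the protease that activates NFE2L1, was the gene that was higher, from 2906 to 3257 counts (0.40). DDI1 had 0 counts in both libraries.

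Ubiquitin shuttles and cofactors of the segregase VCP had a median of −0.27 over 13 genes, and 4 were lower and none higher by the call rule. The 4 of 13 are a share close to the 28.9% lower among all genes tested. The lower genes were the VCP cofactors UBXN1, from 10442 to 5562 counts (−0.67), FAF1, from 7394 to 4158 (−0.59), UBXN4, from 7345 to 4834 (−0.37), and FAF2, from 8662 to 5876 (−0.32). NPLOC4 was the highest, from 10724 to 11214 counts (0.30). VCP had 44571 and 41883 counts and a ratio of 0.15. Some of these genes had low estimated counts beside their gene counts. The estimates were 110 and 226 for NPLOC4, 1154 and 1108 for VCP, 250 and 168 for UBXN4, and 1470 and 821 for UBXN1.

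**Figure D4:**
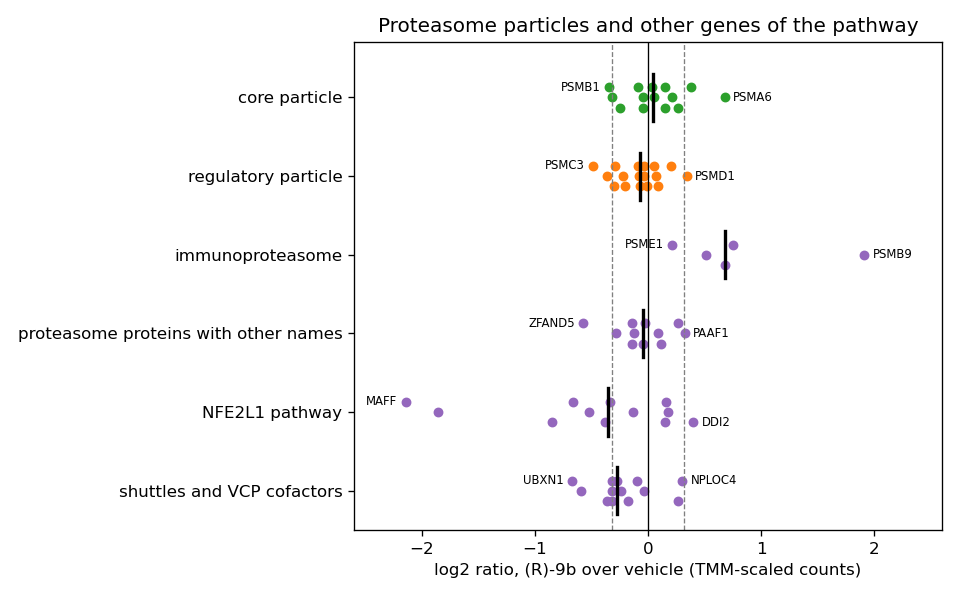
Log2 ratio of (R)-9b over vehicle for the genes of each list (1 point per gene, log2 axis, vertical jitter only for display), with the median of each list as a black bar, dashed lines at the call threshold and the lowest and highest gene labelled, from 1 library per condition. The core and regulatory medians, 0.04 and −0.07, lie close to 0, the immunoproteasome median at 0.68 and the NFE2L1 pathway median at −0.36.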

How the data were processed

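RNA was poly-A selected, primed with random hexamers and sequenced in pairs, per the study's methods. The methods name STAR 2.7.9a and Ensembl release 101, and the submitters' processing notes name STAR 2.5.1a, featureCounts 1.4.6-p5, Salmon 0.8.2, edgeR, limma and hg38. The authors deposited whole-number gene counts of uniquely aligned unambiguous reads, the same values as CPM and moderated log2 CPM, and transcript tables. The deposited CPM column is treated as a score because repeated lines make it sum to more than CPM can. The estimated transcript counts deposited by the authors were used as an alternative, and the transcript CPM and log2 tables were not used.

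After 200 repeated lines were dropped, counts were scaled with TMM (edgeR 4.0.16, R 4.3.3). Ratios are (R)-9b over vehicle with exact (Clopper-Pearson) 95% intervals (Python 3.11.15, scipy 1.17.1, numpy 2.4.6, pandas 2.3.3), for genes that reached 10 counts in the libraries combined. The script was tested on simulated data. With 1 library per condition there was no test, and the depth makes intervals of abundant genes narrow. Of genes with 1 to 20 counts, 72.2% (vehicle) and 70.3% ((R)-9b) had even counts. Ratios were also repeated on halved counts. Both libraries were halved under the same scaling, so the ratios could move only by rounding, and the repeat does not bear on the even counts. All intervals given rest on the whole counts and may be too narrow because of the even counts. Intervals on halved counts would be wider and are not given, and the source of the even counts was not tested. Annotation was GENCODE 29, which is not the release the reads were counted on. The mRNA length is that of the APPRIS principal transcript.

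Every member is named with its counts, and given with intervals are those past the call threshold (1.25-fold), the catalytic subunits, and others whose interval bears on the direction. Of the other lists, genes past it and the extremes are named, and a few others were chosen after their values were seen. Some genes of the lists are not reported here, and the list of ubiquitin genes and activating enzymes, of which 4 are given, has no median. Members and lists were chosen with earlier results of these data known. Alternatives were scaling by total counts, DESeq2 1.42.0 size factors and the upper quartile, TMM without mitochondrially encoded genes, the deposited CPM (pseudocount 1) and moderated log2 CPM, the estimated counts, halved counts, minimums of 1 and 50 counts and other call rules. Figures used matplotlib 3.10.9.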

Additional observations from a re-analysis of the deposited data

How the results depend on the processing

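The direction of the alpha and beta ring medians held under every alternative run, whereas that of the core median and of the core minus regulatory difference did not. The core median was −0.016 with total counts, with deposited CPM and with moderated log2 CPM, −0.051 with estimated counts, −0.064 with estimates of members whose yield was 0.3 to 0.4, −0.043 when summed and −0.044 without members that share exons. The regulatory median was −0.131, −0.130 and −0.131 with total counts, CPM and moderated log2 CPM. The difference between them was −0.0018 with estimated counts, −0.0061 with estimates of like yield, 0.017 when summed and 0.027 without shared exons.

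The alpha median was 0.151 (total), 0.132 (CPM), 0.151 (moderated log2 CPM), 0.138 (estimated), 0.148 (like yield), 0.153 (summed) and 0.149 (without shared exons). The beta median was −0.144 (total), −0.143 (CPM), −0.144 (moderated log2 CPM), −0.244 (estimated and like yield) and −0.157 (summed). Alpha minus beta was 0.382 (estimated), 0.393 (like yield) and 0.233 (without shared exons). Lower genes numbered 10 with total counts, CPM and moderated log2 CPM, 0 at 1.5-fold and 20 by whole intervals, and higher genes numbered 1 at 1.5-fold and 14 by whole intervals.

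Of 410 alternative values for single genes, 314 stayed inside the gene's own 95% counting interval and 96 did not. The 314 include every value from the changed minimum counts, which could not move the ratio of a tested gene. They also include every value from halved counts and from TMM without mitochondrially encoded genes, which hardly moved the ratios. The 314 therefore overstate how stable the values were. The direction changed in some alternative for PSMA1, PSMA2, PSMA7, PSMB3, PSMB5, PSMC6, PSMD12, PSMD14, PSMD3 and PSMD9, none of them called with TMM scaling of the gene counts. Each alternative to the scaling or quantification kept 10 to 12 of the 12 calls. The calls lost were PSMA4 and PSMD1 with total counts, CPM and moderated log2 CPM, PSMD1 with DESeq2 size factors, PSMB1 and PSMG2 with the upper quartile (4 genes lower) and PSMA6 from estimated counts. Calls were also gained. PSMB6, PSMD4, PSMD13 and PSMF1 were lower with total counts, CPM and moderated log2 CPM, and PSMB6 also with DESeq2 size factors. From estimated counts PSMB5 was lower, and PSMB3 and PSMC5 were higher. The ring comparison, the exclusion of shared exons and the like-yield estimates were chosen after seeing the data. The causes were not tested beyond what each setting changes. PSMA8 and PSMB11 did not reach 10 counts, so the core particle with them gave no other value. PSMB11 (5 counts) passed the minimum of 1 count, and with it 7 genes were lower. No paired analysis was possible because each condition has 1 library, and for the same reason leaving out a library was not possible.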
